A study of Mus musculus with 7 samples.

Results

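The oncostatin M and interleukin 6 (IL-6) pathway was followed through 10 genes in muscle stem cells (satellite cells) of young and geriatric mice. The genes were the ligands Il6 and Lif, the receptor chains Osmr, Lifr, Il6ra and Il6st, the kinases Jak1 and Jak2, the transcription factor Stat3 and the inhibitor Socs3. Members were all probes other than controls whose gene name on the array equalled one of these symbols, which gave 13 of 55681 probes and 10 of 36406 names. Lifr had 3 probes, Stat3 had 2 and each other gene had 1. All samples came from male C57BL/6 mice with no allele or treatment named in the labels. Young mice (3 arrays) were 2, 2 and 3 months old and geriatric mice (4 arrays) 28, 28, 29 and 30 months old. Cells positive for integrin α7 and CD34 and negative for CD31, CD45, CD11b and Sca1 were sorted from dissociated muscle in homeostasis, and their RNA was amplified from small cell numbers before labelling with Cy3. The labels call the arrays biological replicates but do not say how many mice gave each one, so every p-value reflects only how these samples varied.

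Cytokines of the IL-6 family share the signalling chain gp130, encoded by Il6st. IL-6 first binds its own receptor chain (Il6ra) and then gp130. Leukaemia inhibitory factor (Lif) signals through gp130 paired with Lifr, and oncostatin M signals through gp130 paired with Osmr. The receptors activate JAK kinases, which phosphorylate STAT3, and STAT3 induces Socs3, whose product binds gp130 and JAKs and dampens the signal. In muscle, oncostatin M has been linked to the quiescence of satellite cells, and IL-6 and LIF to their proliferation.

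Geriatric replicates 1 and 2 carry the same sample name in their descriptions. Their signals lay within 2 combined measurement errors for 95.4% of probes, against 59.9% to 66.9% for the other pairs of arrays. They were therefore averaged and counted as 1 sample, leaving 3 young and 3 geriatric samples. Over the 13 member probes these 2 arrays differed by a median of 0.016 log2 units and by at most 0.19, for Socs3. Per array, 38044 to 41289 of 55681 probes were well above background. Pax7, which marks satellite cells, differed by 0.03 log2 units between groups, and of 12 satellite cell markers, all measurable, 8 were higher and 4 lower with a median difference of 0.07. Itga7, the gene of the integrin used in the sort, was lower in every geriatric sample, with a difference of -0.44, and 0 of the 12 passed the test. Levels below are log2 signals relative to the array's 75th percentile, so a level of 0 equals that percentile. A difference is geriatric minus young, with n = 3 samples per group throughout. Levels of different probes cannot be set against each other, because probes bind with different strength.

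The receptor chains Osmr and Lifr were higher in every geriatric sample than in any young sample on 3 of their 4 probes, but no member passed the test. Osmr was 3.96-fold higher in geriatric cells (95% interval 1.71 to 9.20), and the 3 probes of Lifr were 1.62-fold to 1.96-fold higher. The Osmr interval assumes the same variance in both groups, whereas its SD was 0.01 in young and 0.98 in geriatric samples. An interval without that assumption was not computed. The shared chain Il6st, the kinase Jak1, Stat3 and Socs3 differed by a factor of at most 1.28. Of the 41257 probes tested across the array, 6 (0.0145%) had an adjusted p under 0.05 (limma, Benjamini-Hochberg), 1 higher and 5 lower in geriatric cells. Of the 13 member probes 0 passed, with adjusted p of 0.429 to 0.996, and 3 of 13 had an unadjusted limma p under 0.05, against 7.34% of tested probes. The groups did not overlap for 3 of 13 member probes, all higher in geriatric cells, against 12.8% of all tested probes in either direction of which 6.86% were geriatric higher and 5.96% geriatric lower. The difference was above 0 for 11 of 13 member probes, against 49.0% of tested probes. The median difference was 0.36 over the member probes and -0.0090 over all tested probes. Several probes read Lifr and Stat3, so these counts are not of separate genes. By the brightest probe of each gene 8 of 10 members were higher, with a median difference of 0.27, and 2 had groups that did not overlap. All 13 probes met the requirement of being well above background on at least 3 of 7 arrays, Il6 through 1 young and 3 geriatric arrays and the other 12 on every array.

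**Figure D1:**
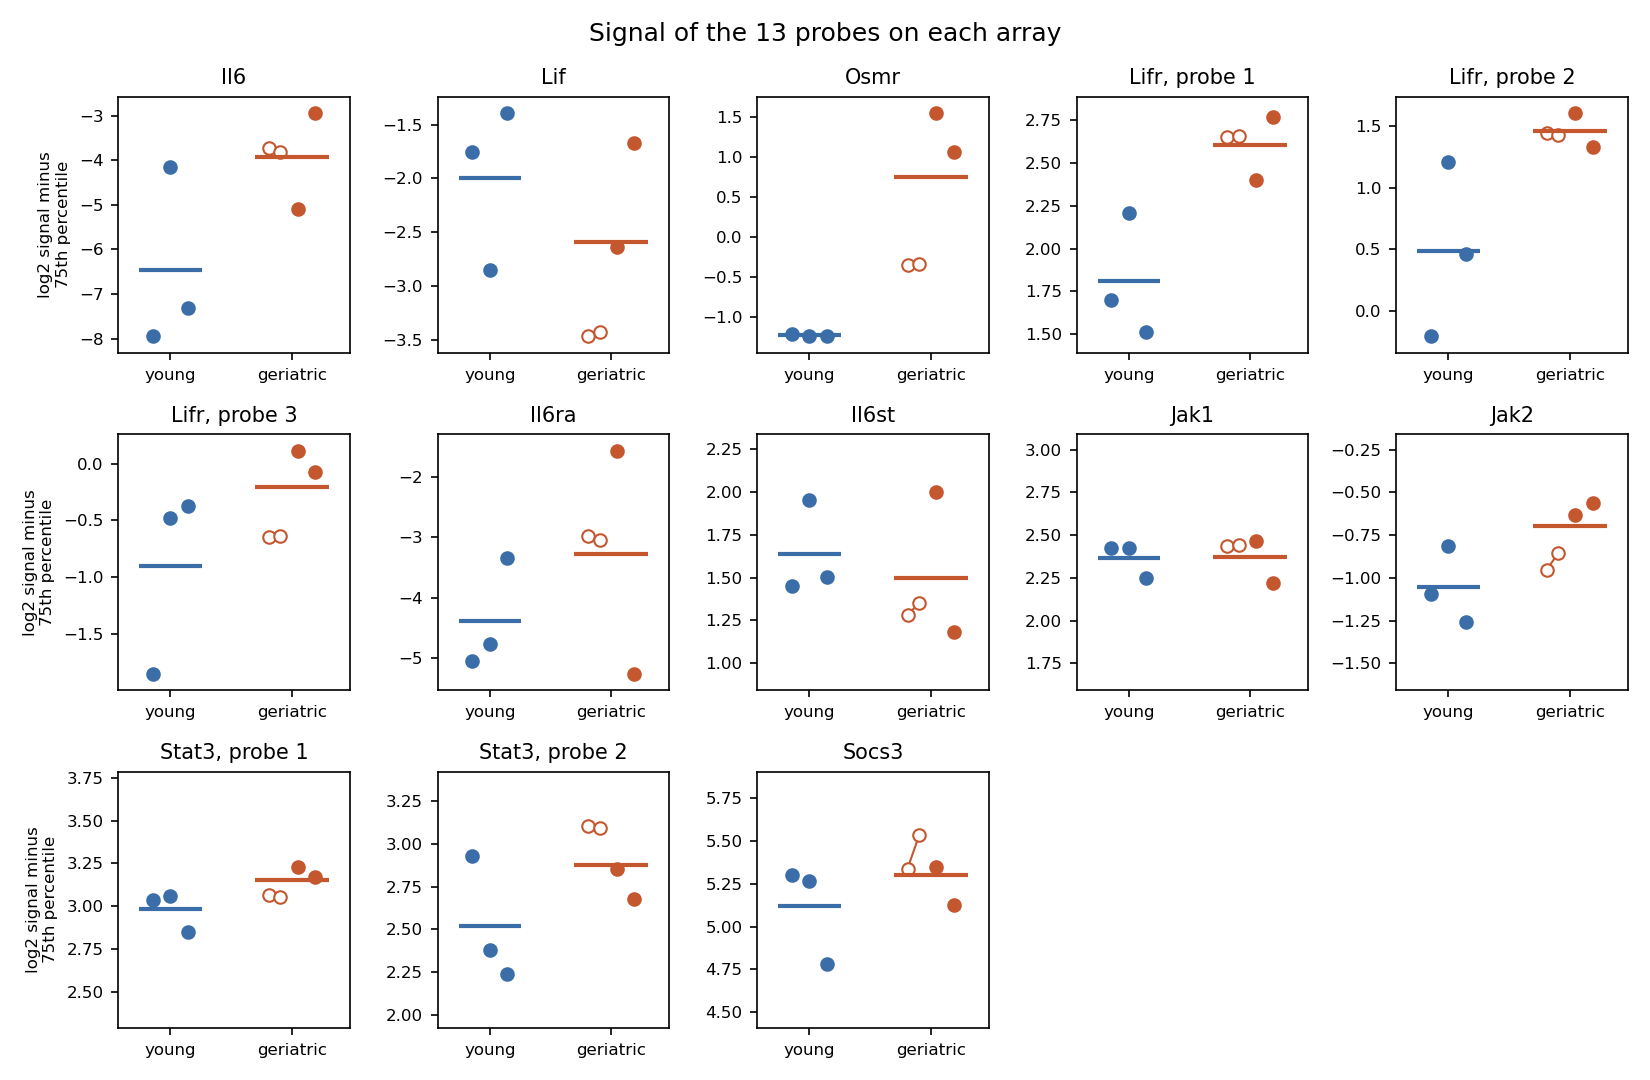
Level of each of the 13 member probes on every array, as log2 signal minus the array's 75th percentile; each panel has its own vertical range. Blue points are young arrays, filled orange points geriatric replicates 3 and 4, joined open points geriatric replicates 1 and 2 (averaged as 1 sample), and horizontal lines the group means over 3 samples. Osmr lay between -1.24 and -1.22 on the young arrays and between -0.35 and 1.55 on the geriatric arrays.

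The probes of Osmr and Lifr are shown because 3 of these 4 are the member probes whose groups did not overlap. Each is the first 30 bases of the 60-base probe on the array, 5′ to 3′, in lower case.
Osmr, chr15:6763716-6763745 on mm9, minus strand: attgcagatgctctgtttacattttcttgt
Lifr probe 1, chr15:7141150-7141179 on mm9, plus strand: agaacaaaccaaatgactaaccaggtcacc
Lifr probe 2, chr15:7147319-7147348 on mm9, plus strand: catagatgatgtaaatagcctaagacactg
Lifr probe 3, chr15:7135072-7135101 on mm9, plus strand: taaaaacttggaaatgtatccaggcctaac
The array assigns Lifr probes 1 and 2 to the transcript NM_013584 and probe 3 to NM_001113386. The 3 Lifr probes therefore read different stretches of the gene, and the Osmr probe a neighbouring gene on the same chromosome. An annotation of mm9 was not used here, so exon or UTR is not stated.

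Osmr encodes the receptor chain that oncostatin M engages together with gp130. Its processed signal was 629.9, 652 and 693 intensity units on young arrays 1, 2 and 3, and 1254, 1135, 4690.4 and 2823 on geriatric arrays 1 to 4. As levels the young samples stood at -1.22, -1.24 and -1.24, and the geriatric samples at -0.34 (replicates 1 and 2 averaged), 1.55 and 1.06. The young samples were nearly identical, and the geriatric samples were spread widely above them. The young mean was -1.23 ± 0.01 and the geriatric mean 0.75 ± 0.98 (SD, n = 3), a difference of 1.99 (SE 0.49, limma adjusted p = 0.429). The array position in the sample descriptions puts all young arrays and geriatric replicate 1 in row 1 and geriatric replicates 2, 3 and 4 in row 2. Within row 1 the Osmr difference was 0.89, from 3 young arrays against 1 geriatric array. Row 2 holds no young array, so a fit with the row as a block gives the same value by design. Geriatric replicates 1 and 2, from the 2 rows, stood at -0.35 and -0.34.

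Osmr moved with the median of a list of markers of fibro-adipogenic progenitors, a stromal cell type of muscle. The part of these cells in the result was not tested. Of the 12 markers 10 were measurable and 8 of those were higher in geriatric cells, with a median difference of 0.73, and 0 passed the test. The median deviations of the markers from their own means were -0.37, -0.30 and -0.24 in young replicates 1 to 3, while G1+2 (the average of geriatric replicates 1 and 2), G3 and G4 had 0.04, 0.83 and 0.55. The deviations of Osmr in the same order were -0.98, -1.003, -0.999, -0.10, 1.79 and 1.30. The samples high for Osmr were thus also high for the marker median. Single markers went other ways, and Col1a1 (level -2.10) and Col3a1 (4.31) were at their lowest of all samples in G4. The summed linear level of the 10 markers, which the most abundant of them dominate, was 43.9 to 59.5 in young and 56.7 to 64.8 in geriatric samples. Pdgfra and Dpp4, a defining receptor and a surface marker of these progenitors, were not well above background on any of the 7 arrays. The sort selected against Sca1, a surface protein of these progenitors, and its gene Ly6a, with a difference of 1.21, cleared the background level on 2 arrays of each group. Col1a1 and Col3a1 differed by -0.01 and -0.14, whereas Dcn, a matrix proteoglycan, differed by 1.56. In bulk samples like these, more (or fewer) cells of a type and more (or less) RNA per cell cannot be told apart.

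**Figure D2:**
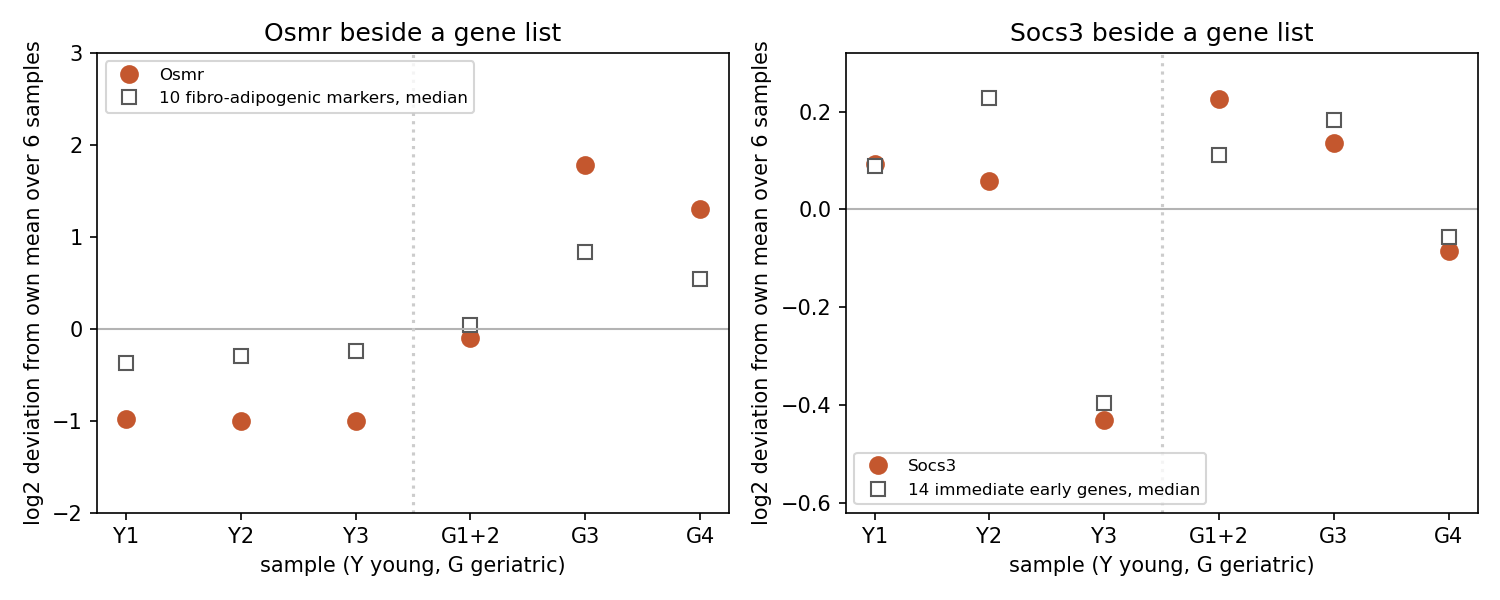
Deviation of Osmr (left) and Socs3 (right) from their own mean over the 6 samples, in log2 units, beside the median deviation of 10 fibro-adipogenic markers and of 14 immediate early genes. Y1 to Y3 are young replicates, G1+2 the average of geriatric replicates 1 and 2, and G3 and G4 geriatric replicates 3 and 4. Osmr was 1.79 above its mean in G3, where the marker median was 0.83, and Socs3 was lowest in Y3 at -0.43, where the immediate early median was -0.40.

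Lifr, the chain shared by receptors for LIF and, in some species, oncostatin M, was higher in geriatric cells on each of its 3 probes. Probe 1 read 1.70, 2.21 and 1.51 in young and 2.66, 2.40 and 2.77 in geriatric samples, a difference of 0.80 (SE 0.25, limma adjusted p = 0.566). Probe 2 read -0.20, 1.21 and 0.46 in young and 1.44, 1.60 and 1.33 in geriatric samples, a difference of 0.97 (SE 0.38, adjusted p = 0.663). The groups did not overlap on these probes, and young replicate 2 came closest to the geriatric values on both. Probe 3 read -1.85, -0.47 and -0.37 in young and -0.64, 0.11 and -0.08 in geriatric samples, a difference of 0.70 (SE 0.46, adjusted p = 0.816). Here the averaged geriatric sample lay inside the young range, and without young replicate 1 the difference was 0.22. Young replicate 1 was the lowest young sample on probes 2 and 3 but not on probe 1, and without it probe 2 differed by 0.62.

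Il6st, the gp130 chain that IL-6, LIF and oncostatin M share, did not separate the groups. Young samples read 1.45, 1.95 and 1.502 and geriatric samples 1.32, 2.00 and 1.18, a difference of -0.14 (95% interval -0.85 to 0.58, limma adjusted p = 0.953). Geriatric replicate 3 was the highest sample and geriatric replicate 4 the lowest, with the young samples between them. The difference was 0.02 without young replicate 2 and 0.02 without geriatric replicate 4, so its direction was not fixed by these samples. Il6ra, the chain that binds IL-6 itself, was dim, with processed signals of 35.4 to 542 intensity units. Young samples read -5.05, -4.77 and -3.35 and geriatric samples -3.01, -1.57 and -5.26, a difference of 1.11 (95% interval -1.36 to 3.58, adjusted p = 0.870). The highest and the lowest sample were both geriatric. Without geriatric replicate 3 the Il6ra difference was 0.26, without geriatric replicate 4 it was 2.10, and with the authors' values it was 0.74.

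The ligands leaned in opposite directions, and neither passed the test. Il6, the inflammatory cytokine, stood at -7.95, -4.15 and -7.31 in young and at -3.77, -5.09 and -2.94 in geriatric samples, and the groups overlapped through young replicate 2. Its difference was 2.53 with scaling by the percentile (SE 1.11, 95% interval -0.20 to 5.27, limma adjusted p = 0.697), but 0.84 with normexp background correction and 0.77 with the authors' values. Its processed signal was 5.94 on young array 1 and 10.3 on young array 3, where it was not well above background, so the size of the difference rests on values near the floor of the scanner. Lif, the leukaemia inhibitory factor gene, was well above background on every array. Young samples read -1.75, -2.86 and -1.39 and geriatric samples -3.45, -2.64 and -1.67, a difference of -0.59 (95% interval -2.02 to 0.84, adjusted p = 0.887). The averaged geriatric sample was the lowest of all 6 for Lif. Within array row 1 the difference was -1.47, and leaving out geriatric replicate 4, young replicate 2 or G1+2 gave -1.05, -1.02 and -0.16. Osm, the gene of oncostatin M itself and no member of the set, cleared the background level on 1 array of each group and was not tested.

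The kinases varied little, with an SD of at most 0.23 within either group. Jak1, which associates with gp130, stood at 2.43, 2.43 and 2.25 in young and at 2.44, 2.46 and 2.22 in geriatric samples, a difference of 0.01 (95% interval -0.42 to 0.43, limma adjusted p = 0.996). As a fold, that interval for Jak1 ran from 0.75 to 1.35, in a fit that leaves out the array row. Jak2, a second kinase that gp130 receptors activate, stood at -1.09, -0.81 and -1.26 in young and at -0.91, -0.63 and -0.56 in geriatric samples. The groups overlapped through young replicate 2, and the difference of 0.35 had a 95% interval of -0.15 to 0.86 (adjusted p = 0.784). Within array row 1 the Jak2 difference was 0.10.

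Stat3, the transcription factor downstream of gp130, was read by 2 probes. Probe 1, printed in 10 spots on each array (transcript NM_213659), stood at 3.03, 3.06 and 2.85 in young and at 3.06, 3.23 and 3.17 in geriatric samples, a difference of 0.17 (95% interval -0.24 to 0.59, limma adjusted p = 0.885). Probe 2 (NM_011486) stood at 2.93, 2.38 and 2.24 in young and at 3.101, 2.85 and 2.68 in geriatric samples, a difference of 0.36 (95% interval -0.26 to 0.98, adjusted p = 0.824). On both probes young replicate 3 was the lowest sample, and without it they differed by 0.10 and 0.22. Without young replicate 1 probe 2 differed by 0.57. Only RNA was measured, so the phosphorylation of STAT3 was not.

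Socs3, the feedback inhibitor that STAT3 induces, had a processed signal of 44977 to 66579 intensity units with no saturated spot. Young samples read 5.30, 5.27 and 4.78 and geriatric samples 5.44, 5.35 and 5.13, a difference of 0.19 (95% interval -0.36 to 0.73, limma adjusted p = 0.908). Young replicate 3 was the lowest sample, and without it the difference was 0.02. Immediate early genes, which respond within minutes to stress such as tissue dissociation, were low in the same sample, with a median deviation of -0.40 over 14 genes, against -0.06 to 0.23 in the other 5 samples. Their summed linear level was 416 in young replicate 3 and 531 to 620.1 in the other samples, and their part in the Socs3 values was not tested. The list had 12 of 14 genes higher in geriatric cells with a median difference of 0.12, and 0 passed the test. Young replicate 3 was low on other lists too, with a median deviation of -0.47 for STAT factors other than Stat3 and -0.31 for known STAT3 target genes. Satellite cell markers had -0.01 there and Schwann cell markers 0.23. Fos and Junb are on both the immediate early and the STAT3 target list.

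**Figure D3:**
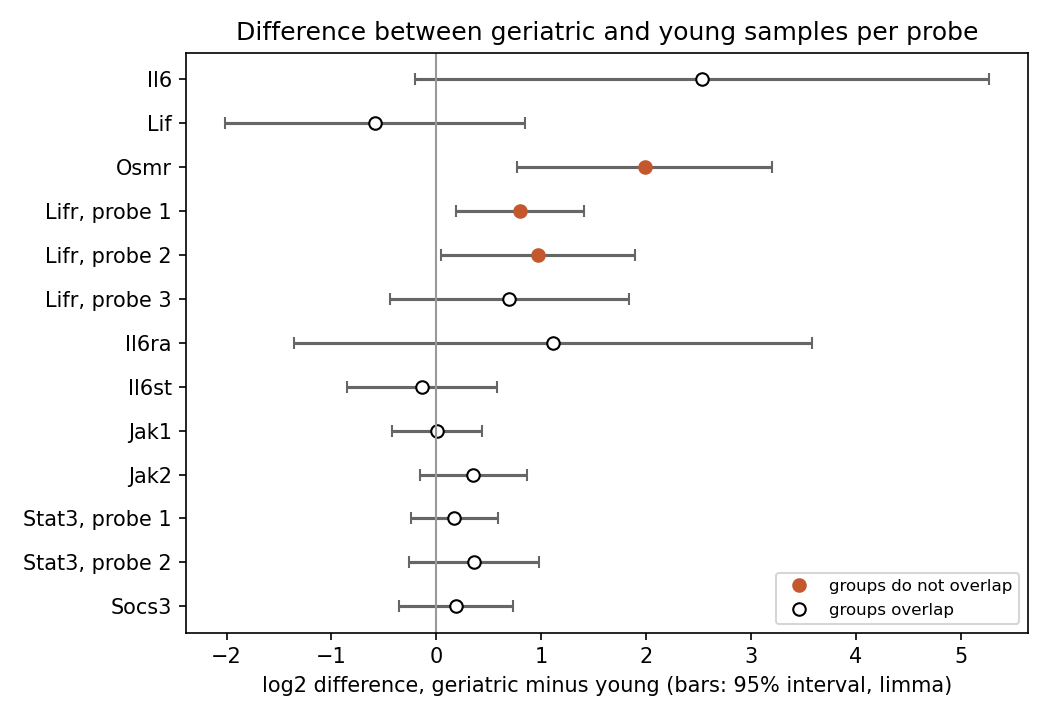
Log2 difference between geriatric and young samples for each member probe, with its 95% interval from limma (n = 3 samples per group). Filled orange points mark the 3 probes whose groups did not overlap, Osmr at 1.99 and Lifr probes 1 and 2 at 0.80 and 0.97; open points mark overlapping groups.

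The start-site regions were searched for letters that STAT and AP-1 factors are known to bind, because Socs3 is a STAT3 target and cytokine genes respond to AP-1. RefSeq sequences on GRCm38.p6 covered all 10 members with 11 start sites, Lifr having 2, and the 250 bases before each start were used. The STAT motif was TTCNNNGAA and the AP-1 motif TGANTCA, on both strands, and no match overlapped another. The STAT motif was found in 1 of 11 member regions, that of Socs3, against 7.02% of 32851 regions of the same length. The AP-1 motif was found in 2 of 11, those of Il6 and Lif, against 6.75%. The 3 regions with a match are printed 5′ to 3′ on the gene's strand, with the match in capitals.
Socs3, chr11:117969367-117969616, minus strand: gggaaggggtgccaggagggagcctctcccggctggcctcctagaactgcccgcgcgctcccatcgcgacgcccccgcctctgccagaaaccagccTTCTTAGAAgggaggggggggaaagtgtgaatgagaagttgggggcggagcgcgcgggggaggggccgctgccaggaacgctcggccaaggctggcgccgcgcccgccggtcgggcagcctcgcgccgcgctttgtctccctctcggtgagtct
Il6, chr5:30012864-30013113, plus strand: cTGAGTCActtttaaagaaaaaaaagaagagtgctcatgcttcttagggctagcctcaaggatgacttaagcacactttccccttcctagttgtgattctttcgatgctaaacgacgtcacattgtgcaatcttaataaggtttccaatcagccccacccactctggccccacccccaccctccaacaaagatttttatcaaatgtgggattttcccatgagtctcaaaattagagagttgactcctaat
Lif, chr11:4257318-4257567, plus strand: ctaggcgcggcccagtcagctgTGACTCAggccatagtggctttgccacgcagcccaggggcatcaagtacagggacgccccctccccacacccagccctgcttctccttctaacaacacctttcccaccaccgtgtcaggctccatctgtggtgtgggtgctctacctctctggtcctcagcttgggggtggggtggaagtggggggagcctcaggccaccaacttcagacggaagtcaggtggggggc
The match TTCTTAGAA of Socs3 began 154 bases before its start, TGAGTCA of Il6 249 bases before and TGACTCA of Lif 228 bases before. A match in these letters is not a binding event, and the arrays hold no measure of binding.

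Other genes of the pathway, from a list of 62, included 0 that passed the test. A probe was measurable for 55 of them, and of their 77 tested probes 0 passed the limma test. By the brightest probe of each gene 30 were higher and 25 lower, with a median difference of 0.06, against -0.0090 over all tested probes. Over all tested probes, counted by probe and not by gene, the groups did not overlap for 6.86% with geriatric higher and 5.96% with geriatric lower. Of the 55 genes, by the brightest probe, they did not overlap for 8 with geriatric higher and 2 with geriatric lower. Of these 8, Ptpn6 cleared the background level on 0 young and 3 geriatric arrays, and Cish on 1 and 3. Ptpn6 thus met the filter of 3 arrays through geriatric arrays alone, with young levels of -6.95, -8.08 and -6.73. Geriatric replicates 1 and 2, averaged as 1 sample, count as 2 arrays in this filter. Among the other receptor chains 3 of 4 were tested, 2 of them higher, and among the other ligands 7 of 10 were tested, 3 of them higher. Among known STAT3 target genes 20 of 22 were tested, 11 higher and 9 lower, with a median difference of 0.05. The other STAT factors had 5 of 6 tested, 1 higher and 4 lower (median -0.17), the kinases and adaptors 6 of 6 tested, 4 of them higher (0.06), and the other inhibitors 14 of 14 tested, 9 of them higher (0.06).

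Cntfr, which encodes the receptor chain of ciliary neurotrophic factor that joins Lifr and gp130, had the smallest p among them. It stood at -3.23, -3.91 and -3.37 in young and at -1.63, -1.70 and -2.34 in geriatric samples, a difference of 1.61 (SE 0.30, limma adjusted p = 0.286). The groups did not overlap on this probe, but its other probe overlapped, with a difference of 1.40 and a 95% interval of -0.86 to 3.66. Socs1, an inhibitor of JAK kinases, stood at -2.47, -2.50 and -2.94 in young and at -1.28, -1.18 and -2.26 in geriatric samples, a difference of 1.06 (adjusted p = 0.589). Pias1, an inhibitor of STAT factors, differed by 0.61 (adjusted p = 0.543), and by 0.34 and 0.28 on its other 2 probes. Lower in every geriatric sample were 1 of 3 probes of Socs2, a further member of the SOCS family, with a difference of -1.02 (adjusted p = 0.591), and both probes of the phosphatase gene Ptpn2, with -0.82 and -0.41. Il31ra, whose product pairs with Osmr to bind IL-31, was also lower in every geriatric sample, by a difference of -0.61 (adjusted p = 0.748). The genes named here were picked because a probe had groups that did not overlap, as 12.8% of all tested probes did.

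The named genes most like Osmr over the 6 samples were Klf5, Rnf182 and Fam46a. Likeness was the root mean square difference of values centred on each gene's own mean, which was 0.29 for Klf5, 0.29 for Rnf182 and 0.33 for Fam46a. The median over 12403 candidate genes well above background on all arrays was 1.19, and Osmr itself ranged over 2.79 log2 units. Klf5 deviated by -1.13, -1.22 and -1.30 in young and by 0.44, 1.96 and 1.24 in geriatric samples. Klf5, Rnf182 and Fam46a were picked for likeness to Osmr over these 6 samples, so a shared course follows from the choice. For Socs3, Dusp3 (0.041) and Gimap9 (0.058) were the most alike, against a median of 0.37, but Socs3 ranged over only 0.66 log2 units.

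**Figure D4:**
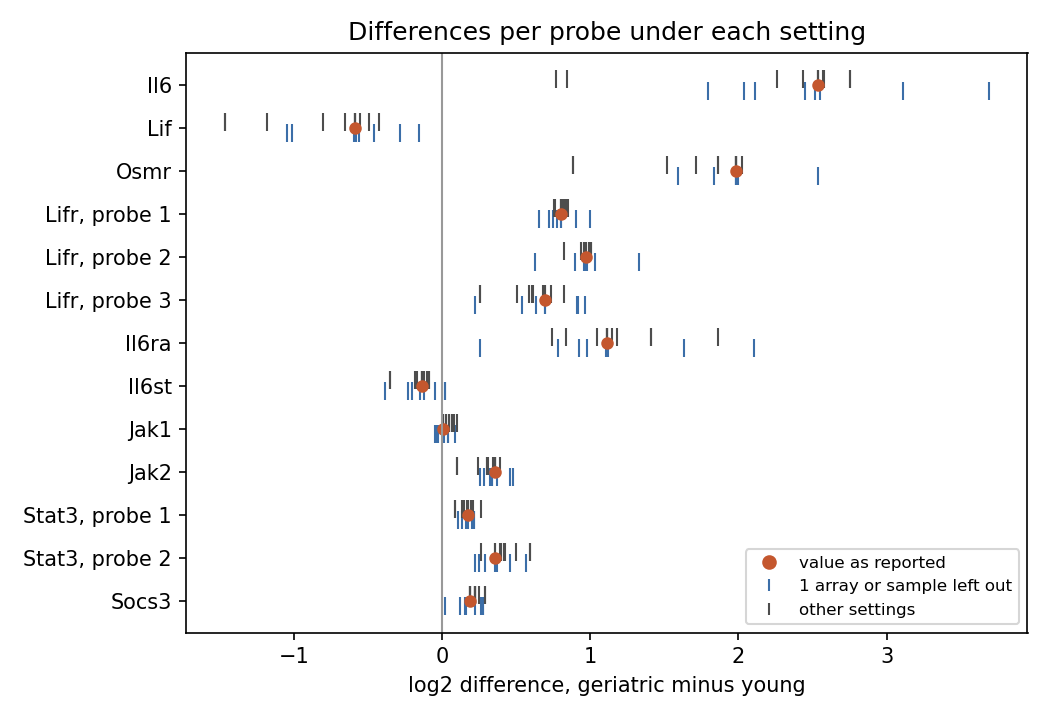
Log2 difference of each member probe under the main analysis (orange points), with 1 array or sample left out (blue ticks) and under the other settings (grey ticks). Osmr ranged from 0.89 to 2.53 and Il6 from 0.77 to 3.69, and the ticks of Il6st and Jak1 fell on both sides of 0.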

How the data were processed

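Expression was measured on 7 Agilent 1-colour arrays. Per the file headers, Feature Extraction 10.7.3.1 gave the deposited intensity values, with a spatially detrended background subtracted, a multiplicative detrend and surrogates near background, and with probe positions on mm9. The authors' deposited log2 values had a median of 8.02 in every column and correlated with the log2 mean signal of the same arrays at 0.99955 to 0.9998 across probes; its background correction and software are not given in the sources used here.

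Each array lost its control spots and 124 to 229 outlier spots, spots of a probe were averaged as log2 processed signal, and each array's 75th percentile (1355 to 1636 intensity units) was subtracted. Probes well above background on at least 3 of 7 arrays were tested one by one with limma 3.58.1 in R 4.3.3 (lmFit, eBayes, 2-sided, Benjamini-Hochberg over 41257 probes, threshold 0.05). On simulated data with 41250 probes, 100 were changed by 2 log2 units and 100 by 4. Of these, 45% and 71% were recovered, with 4 false calls. The shares hold for that number of changed probes and were not obtained for another number. The number of arrays limits the precision.

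The members and gene lists were chosen with earlier results of these data known. Text names every member probe, the 3 pathway genes per direction with the smallest p among probes whose groups do not overlap, and the 3 genes most like Osmr and Socs3, of which 1 is not reported here. Lists of lymphocyte, granulocyte, macrophage, endothelial, pericyte, tenocyte, Schwann cell and myofibre markers were summarised likewise. Figures used matplotlib 3.10.9 in Python 3.11.15. Alternatives covered the signal, scaling, filter, probe choice, array row, replicate numbers and each left-out array.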

Additional observations from a re-analysis of the deposited data

How the results depend on the processing

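Under 20 alternatives 0 member probes and 0 other pathway probes passed. Adjusted p for Osmr ranged from 0.178 to 0.828. Of 256 values for single member probes 5 changed sign, and all 5 lay near 0. With samples left out in turn Il6st ranged from -0.387 to 0.0221 (0.0209 without young replicate 2) and Jak1 from -0.0517 to 0.0844 (-0.037 leaving out geriatric replicate 3 and -0.0255 leaving out the averaged sample). The median member difference kept its direction, from 0.25 to 0.50. The count of 6 probes past the threshold over the whole array was 2 with the authors' values, 104 with geriatric replicates 1 and 2 as 2 samples, 0 with no filter, 0 with probes well above background on all 7 arrays and 0 with the array row as a block, and 0 to 6 with an array or sample left out. The 3 member probes with separate groups became 11 within array row 1, where 1 geriatric array was compared, and 3 to 6 with an array or sample left out. With the replicate number as a block (arrays numbered 1 to 3) 0 probes of the whole array and 0 member probes passed, 6 member probes had separate groups, Osmr differed by 1.52 and Lif by -1.18. The share of all tested probes with separate groups was not computed for these settings. The 12.8% given earlier holds for the main setting only, and smaller groups overlap less often. These counts of separate groups therefore do not show whether member probes differed from other probes. Same-numbered arrays deviated together at r = -0.044, 0.062 and 0.0096 across probes, so the numbers were not taken as pairs. The cause of these shifts was not tested. Signal near background limits Il6.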

Other observations

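Of the tested genes on the lists of other cell types 0 passed the limma test. Endothelial markers had 7 of 8 tested and a median deviation of 1.20 in geriatric replicate 4, against -0.15 to 0.12 in the other samples. Their summed linear level there was 10.5, above the young samples (7.7 to 9.6) but below the averaged geriatric sample. Tek, the marker with the highest signal, stood at 2.99 there, against 2.68 to 3.44 in the other samples. Pecam1 and Egfl7 cleared the background level on 3 young and 2 geriatric arrays. Myofibre markers had 7 of 8 tested and a median deviation of 0.78 in geriatric replicate 4, against -0.16 to 0.41 in the other samples. Tenocyte markers had 4 of 6 tested and a median deviation of 0.81 in the averaged geriatric sample, against -0.32 to 0.17 in the others. Macrophage markers had 8 of 12 listed names tested and a median deviation of 0.48 in geriatric replicate 4. The names Adgre1 and Emr1 on that list stand for the same gene, which the array holds as Emr1. Lyz2, C1qa and Mrc1 were well above background on 0 of 7 arrays. Ptprc and Itgam, the genes of CD45 and CD11b in the sort, were well above it on all 3 young and 4 geriatric arrays. The same held for Csf1r, C1qb, Cd14 and Fcgr1. Cd68 cleared the background level on 3 young and 2 geriatric arrays, and Emr1 on 2 and 3. The median differences were 0.14 for endothelial, 0.22 for macrophage, -0.13 for granulocyte, 0.05 for lymphocyte, 0.11 for pericyte and smooth muscle, 0.63 for tenocyte, 0.04 for Schwann cell and 0.18 for myofibre markers.

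Osmr and Lifr were consecutive among the named tested genes along chromosome 15 by the mm9 probe positions, and the following values were looked up after theirs were seen. Of the 5 named genes on either side, 5 of 10 were higher in geriatric cells, with differences from -0.30 to 1.33. Dab2, an endocytic adaptor, was 1.07 higher with no overlap between groups (SE 0.26, limma adjusted p = 0.422). Rictor, a subunit of mTOR complex 2 that lies beside Osmr, differed by 0.37 (SE 0.25, adjusted p = 0.817), and Egflam, beside Lifr, by 1.33 (SE 1.44, adjusted p = 0.899).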
